A study of Mus musculus with 2 samples.

Results

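The mitochondrially encoded transcripts are the genes read from the circular DNA inside mitochondria. They were taken as every row of both read count tables whose chromosome suffix is chrM, leaving out the ERCC spike-ins (synthetic RNAs added to each well). This gave 37 rows of the 16980 genes listed in either table: 13 protein-coding genes, 2 ribosomal RNAs (rRNAs) and 22 transfer RNAs (tRNAs). All 37 symbols matched a gene of the mitochondrial chromosome in the GENCODE M21 annotation, which uses the mouse build GRCm38. With DMSO 36 of them were listed and with ISX-9 all 37, the difference being the tRNA row mt-Tl2.

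The cells came from mouse small intestinal organoids (jejunum and ileum) of the genotype Neurog3-RFP hom in both groups, and cells positive for the Ngn3-RFP reporter were collected by sorting, 1 plate of 384 wells per treatment. Organoids are cultured epithelial mini-guts, and Neurog3 is the transcription factor that starts the enteroendocrine fate. The control group had 48 h of DMSO, the solvent, and the other group 48 h of ISX-9, a small molecule. Each group is 1 plate, so every difference below is between 2 libraries, has no replicate check, and cannot be told apart from a difference between plates. Wells with at least 2000 reads and 500 genes outside ERCC and chrM rows were kept: 300 of 384 with DMSO and 290 of 384 with ISX-9. Reads outside ERCC and chrM rows are called nuclear reads here. Kept wells had a median of 26340 nuclear reads with DMSO (2295 to 489134) and 22510 with ISX-9 (2007 to 326339). Neurog3 had a read in 147 of the 300 kept DMSO wells and in 211 of the 290 ISX-9 wells. The 5 enterochromaffin markers together had a read in 299 and 290 wells, the 7 goblet markers in 300 and 281, and the 6 Paneth markers in 291 and 244. Such a read therefore does not name the cell type of a well. The immune markers, of which 3 of 5 were listed in the tables, together had a read in 1 well of each plate.

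The mitochondrial genome is transcribed as long RNAs from both strands, and most messages are freed by cutting out the tRNAs that lie between them. The 13 proteins are core subunits of respiratory complexes I, III and IV and of the ATP synthase (complex V), which also need many nuclear-encoded subunits. Most mature mitochondrial messages and the rRNAs carry short poly(A) tails, and a tail supplies the missing bases where a reading frame ends in an unfinished stop codon. The reverse transcription primer of these libraries ended in a stretch of 24 T, so RNA was captured by its A tracts.

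Overlaps, 3′ ends and A-rich stretches are features by which these transcripts differ, and their part in how reads fall on the rows was not tested. They were read from the GENCODE M21 transcripts and run 5′ to 3′. The first 4 are shown because mt-Atp8 and mt-Atp6, and likewise mt-Nd4l and mt-Nd4, lie on 1 shared message with overlapping frames. The capitals mark the overlap of 43 bases for the first pair and 7 bases for the second.
mt-Atp8 end, chrM:7910-7969, plus strand: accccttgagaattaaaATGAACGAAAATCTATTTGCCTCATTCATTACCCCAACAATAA
mt-Atp6 start, chrM:7927-7986, plus strand: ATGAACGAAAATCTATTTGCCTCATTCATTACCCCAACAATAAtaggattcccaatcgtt
mt-Nd4l end, chrM:10114-10173, plus strand: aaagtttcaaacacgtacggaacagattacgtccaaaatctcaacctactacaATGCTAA
mt-Nd4 start, chrM:10167-10226, plus strand: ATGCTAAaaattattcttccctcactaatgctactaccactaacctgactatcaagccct

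The next set shows the last 30 bases of 4 messages, with the stop codon or its first base in capitals. Of the 13 annotated messages, 8 ended in TAA, 2 in TAG and 3 in a lone T past the last full codon. Those 3 were mt-Cytb, mt-Nd4 and mt-Co3, and mt-Atp6 is given beside them as the most read message with a complete stop codon.
mt-Atp6, chrM:8578-8607, plus strand: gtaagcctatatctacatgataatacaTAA
mt-Cytb, chrM:15259-15288, plus strand: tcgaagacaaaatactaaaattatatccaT
mt-Nd4, chrM:11515-11544, plus strand: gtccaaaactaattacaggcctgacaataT
mt-Co3, chrM:9361-9390, plus strand: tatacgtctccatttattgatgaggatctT

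The last set shows the most A-rich stretch of 24 bases, the length of the primer's T stretch, in both rRNAs and in mt-Nd6, with each A in capitals. The windows held 18 A in mt-Rnr2, 17 in mt-Rnr1 and 9 in mt-Nd6. At least 16 A stood in 29 of the 14590 windows of the 37 transcripts (0.199%), and these windows lay in 5 transcripts.
mt-Rnr2: ctAAAAAAAcAAcAAAAtcAAAAA
mt-Rnr1: AtAAAtAAAtAAAtAgAAttAAAA
mt-Nd6: tAtAgctActgAggAAtAtccAgA

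Across the 15 messages and rRNAs, the largest number of A in a window had a Spearman rho with reads per base of 0.14 with DMSO and 0.07 with ISX-9. These values rest on 15 transcripts and on the largest A count alone, without the place of the window or the tails. The part of A-rich stretches in the levels was not tested.

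Mitochondrial transcripts took a large part of the reads in both libraries. The chrM share of a well's non-ERCC reads had a median of 28.4% with DMSO (95% order-statistic interval 26.5% to 30.4%) and 25.5% with ISX-9 (23.7% to 27.3%). With DMSO the share ran from 3.42% to 84.8%, with quartiles at 20.98% and 39.9%. With ISX-9 it ran from 6.63% to 84.1%, with quartiles at 17.5% and 35.7%. The 2 plates overlapped over nearly their whole ranges, and the intervals of their medians overlapped too. Over all kept wells summed, 26.4% of the DMSO reads and 25.2% of the ISX-9 reads were mitochondrial. A share above 50% was found in 43 DMSO wells (14.3%) and 32 ISX-9 wells (11.0%).

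The ISX-9 share was not even over the wells. The ISX-9 wells headed 289 to 384 had a median share of 19.8% (16.9% to 21.6%, 82 wells), and the other 3 stretches of 96 headers had medians of 25.4% to 29.2%. These wells were also the deepest of that plate, with a median of 35682 nuclear reads against 14691 to 22827. In the DMSO plate the 4 stretches had medians of 26.5% to 30.4%. Leaving out the wells headed 289 to 384 in both plates changed the ISX-9 minus DMSO difference from -2.97 to -0.25 percentage points. The sources used here do not give how header numbers lie on the plate, and the part of these wells in the difference between the plates was not tested otherwise.

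The protein-coding messages alone took nearly the same share of all non-ERCC reads in both plates. Their median, with all non-ERCC reads as the denominator, was 20.1% with DMSO (18.9% to 21.6%) and 20.2% with ISX-9 (18.5% to 21.7%). The 2 rRNAs took 7.54% (6.62% to 8.67%) and 4.55% (4.03% to 4.87%). The intervals of the 2 plates overlapped for the messages and did not overlap for the rRNAs. With the mitochondrial rRNA and tRNA rows left out of the denominator, the messages had medians of 22.0% with DMSO and 21.02% with ISX-9.

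Among the messages, complex I genes together held 23.6% of the chrM reads with DMSO and 23.5% with ISX-9. The 3 complex IV genes held 22.7% and 27.0%, the 2 complex V genes 14.9% and 17.7%, and mt-Cytb of complex III 13.7% and 14.9%. The 2 rRNAs held 25.01% and 16.9%, and the 22 tRNA rows 0.0234% and 0.0210%. These percentages share 1 total, so they are not independent of each other.

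**Figure D1:**
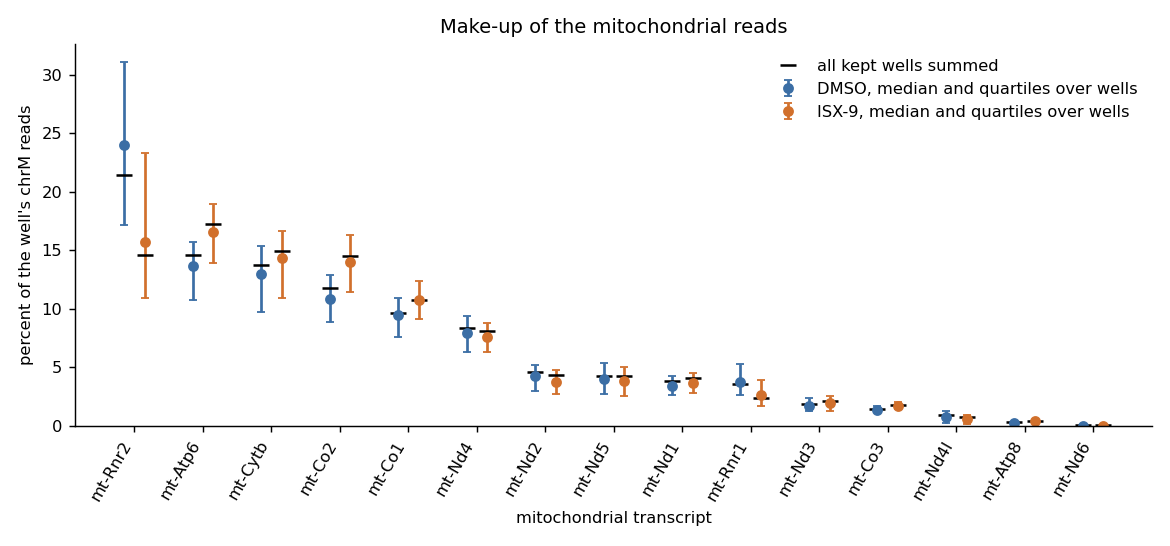
Percent of a well's chrM reads (vertical axis) for the 13 messages and 2 rRNAs (horizontal axis) in the kept wells of each plate; points and bars are the median and quartiles over wells, and black dashes are all kept wells summed. mt-Rnr2 has a median of 24.0% with DMSO and 15.7% with ISX-9, while mt-Atp6 and mt-Co2 have higher medians with ISX-9.

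mt-Rnr2, the large (16S) rRNA of the mitochondrial ribosome (chrM:1094-2675, plus strand), was the most read mitochondrial row of the DMSO plate. It had 1134412 reads, or 56592 CPM (counts scaled to 1000000 non-ERCC reads), with DMSO and 579609 reads, or 36722 CPM, with ISX-9. Its part of a well's chrM reads had a median of 24.0% with DMSO (quartiles 17.1% and 31.1%) and 15.7% with ISX-9 (10.9% and 23.3%). The quartile ranges of the plates overlapped. mt-Rnr1, the small (12S) rRNA (chrM:70-1024, plus strand), had 9428 CPM with DMSO and 5962 CPM with ISX-9. The log2 ratio of ISX-9 over DMSO, on CPM plus 5, was -0.62 for mt-Rnr2 and -0.66 for mt-Rnr1. The ratio of mt-Rnr2 to mt-Rnr1 reads was 6.0 and 6.16, so both rRNAs were lower in the ISX-9 plate by nearly the same factor.

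Among the messages, mt-Atp6 had the highest level per length in both plates. This subunit of the ATP synthase proton channel had 56489 CPM per kb with DMSO and 63917 with ISX-9. mt-Atp8, the small ATP synthase subunit encoded just before it on the same message, had 3787 and 4949 CPM per kb. Per base, mt-Atp6 had 14.9 times the reads of mt-Atp8 with DMSO and 12.9 times with ISX-9. For mt-Nd4 and mt-Nd4l, the other pair on 1 message, the factor was 2.06 and 2.45. In both pairs the gene at the 3′ side of the message had more reads per base, and the sources used here do not give how reads in the overlaps were assigned. Whether reads scale with transcript length in these libraries, which were primed at A tracts, was not tested.

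The complex IV genes encode the catalytic core of cytochrome c oxidase. mt-Co2, which takes electrons from cytochrome c, had 45372 CPM per kb with DMSO and 53551 with ISX-9. mt-Co1, the subunit that reduces oxygen, had 16364 and 17564 CPM per kb. mt-Co3, which starts on the last base of mt-Atp6, had only 4722 and 5537 CPM per kb. mt-Atp6 had 11.96 times the reads per base of its downstream neighbour mt-Co3 with DMSO and 11.5 times with ISX-9. mt-Cytb, the only mitochondrially encoded subunit of complex III, had 31691 and 32859 CPM per kb.

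The complex I genes encode the membrane arm of NADH dehydrogenase, and their levels per length spread widely. mt-Nd4 had 15984 CPM per kb with DMSO and 14840 with ISX-9, and mt-Nd3 had 14053 and 15211. Their order on this scale differed between the plates. Without division by length, mt-Nd4 was above mt-Nd3 in both plates, with 22026 and 20449 CPM against 4890.5 and 5293.3. mt-Nd2 had 11621 and 10456 CPM per kb, and mt-Nd1 had 10400 and 10745. mt-Nd4l had 7746 and 6053 CPM per kb, and mt-Nd5 had 6075 and 5806. mt-Nd6 was far below all other messages, with 54.6 and 65.7 CPM per kb, and how well its RNA was captured was not tested. It is the only message read from the opposite (light) strand, and its 568 and 538 reads came from 105 of 300 and 86 of 290 wells. mt-Nd5, whose 3′ end overlaps that of mt-Nd6 by 14 bases on the other strand, had 391 and 311 times its reads. The 9 minus-strand rows together held 705 reads with DMSO (0.0133% of chrM reads) and 665 with ISX-9 (0.0167%).

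The tRNA rows were close to empty, and 20 of the 22 had under 100 reads in each plate. The 5 most read were mt-Tm, mt-Tw, mt-Te, mt-Tt and mt-Tg. mt-Tm, the methionine tRNA just before mt-Nd2 (chrM:3845-3913, plus strand), had 563 reads in 142 DMSO wells and 356 reads in 125 ISX-9 wells. mt-Tw, the tryptophan tRNA whose first bases overlap the end of mt-Nd2, had 265 and 166 reads. mt-Te, the glutamate tRNA, had 71 and 80 reads, of which 1 well held 56.3% with DMSO and 53.8% with ISX-9.

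No mitochondrial transcript with enough reads to compare differed 2-fold between the 2 libraries. Among 8262 genes averaging 10 CPM or more over the plates, 3.91% were at least 2-fold higher and 1.16% at least 2-fold lower in the ISX-9 library. Of the 37 transcripts, 17 passed this minimum (13 messages, 2 rRNAs, mt-Tm and mt-Tw), and none was 2-fold higher or lower. At the shares over all genes, few or none of 17 genes would be past 2-fold, so this does not set the members apart. Their median log2 ratio was 0.05, beside a median of 0.16 over all genes tested. Of the 17, 9 were above 0 and 8 below, beside 69.4% above 0 over all genes tested. Apart from the rRNAs, the ratios farthest from 0 were 0.38 for mt-Atp8 and -0.36 for mt-Nd4l. mt-Co2 had 0.24, mt-Nd6 0.23, mt-Co3 0.23, mt-Atp6 0.18, mt-Nd3 0.11, mt-Co1 0.10, mt-Cytb 0.05 and mt-Nd1 0.05. Below 0 lay mt-Nd5 with -0.07, mt-Nd4 with -0.11 and mt-Nd2 with -0.15. Counted among protein-coding mitochondrial reads only, mt-Co2 held 15.7% with DMSO and 17.5% with ISX-9, and mt-Atp6 19.4% and 20.8%. On that same scale mt-Nd4 held 11.1% and 9.76%, and mt-Nd2 held 6.10% and 5.18%. There mt-Cytb held 18.3% and 17.9%, and mt-Nd1 5.03% and 4.91%, so both were slightly lower with ISX-9 on this scale.

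The median rRNA part was lower in the ISX-9 plate in every depth bin. In 5 bins of nuclear reads, the median rRNA part of chrM reads with DMSO went from 33.5% (2000 to 5000 reads) to 22.2% (50000 reads or more). With ISX-9 it went from 25.8% to 13.3% over the same bins. The 95% intervals of DMSO and ISX-9 overlapped at 2000 to 5000 reads (28.1% to 36.9% and 17.7% to 32.4%). They also overlapped at 10000 to 20000 reads (25.8% to 37.3% and 18.1% to 30.1%), and not in the other bins. The median of mt-Rnr2 was lower with ISX-9 in all 5 bins, with ISX-9 minus DMSO differences of -9.79 to -5.58 percentage points. For mt-Rnr1 the differences were -1.50 to -0.56 points. mt-Atp6 had the higher median with ISX-9 in all 5 bins, by 2.49 to 4.00 points, and mt-Co2 by 2.62 to 4.85 points. So did mt-Cytb (0.61 to 1.77 points), mt-Co1 (0.09 to 2.68) and mt-Atp8 (0.04 to 0.13). These parts share a total with the rRNAs, so they are not independent of the lower rRNA part. Over all kept wells, the log2 ratio among protein-coding mitochondrial reads only was 0.10 for mt-Atp6 and 0.16 for mt-Co2. The 4 stretches of headers had rRNA medians of 24.6% to 32.1% with DMSO and of 16.1% to 20.3% with ISX-9, so the stretches of the 2 plates did not overlap.

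Rn45s, the row of the nuclear 45S precursor of the cytoplasmic rRNAs, moved with the mitochondrial rRNAs. It had 92870 CPM with DMSO and 45596 CPM with ISX-9, a log2 ratio of -1.03. Across wells, the rRNA part of the chrM reads had a rho with the Rn45s part of nuclear reads of 0.63 with DMSO and 0.58 with ISX-9. Its rho with nuclear reads was -0.32 and -0.44. With Rn45s left out of the denominator, the median chrM share was 32.2% with DMSO and 26.6% with ISX-9.

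**Figure D2:**
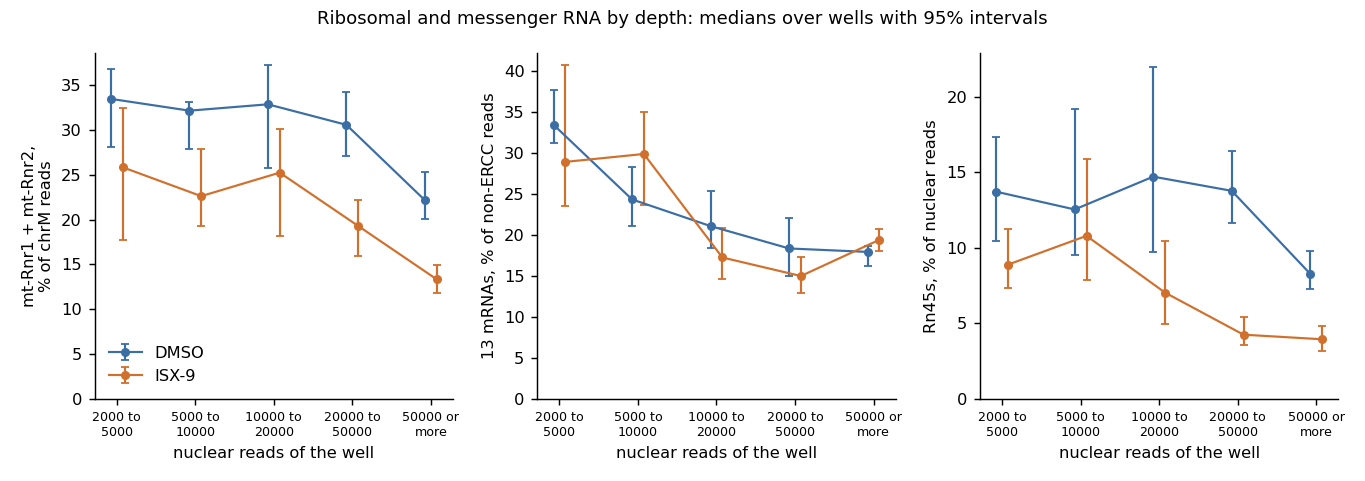
Medians over wells with 95% intervals (vertical axes, percent) in 5 bins of nuclear reads (horizontal axes) for both plates: the 2 mitochondrial rRNAs as a part of chrM reads, the 13 messages as a part of non-ERCC reads, and Rn45s as a part of nuclear reads. The ISX-9 medians of both kinds of rRNA lie below the DMSO medians in every bin, while the messages cross.

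Shallow wells had high mitochondrial shares. In the wells with 2000 to 5000 nuclear reads the median share was 48.2% with DMSO (44.5% to 58.5%, 42 wells) and 43.0% with ISX-9 (34.2% to 50.8%, 39 wells). At 50000 reads or more it was 22.4% (21.3% to 24.1%, 95 wells) and 22.8% (21.01% to 23.9%, 83 wells). No well of that deepest bin had a share above 50%, while 19 and 14 wells of the shallowest bin did. Across wells, share and nuclear reads had a rho of -0.55 with DMSO and -0.45 with ISX-9, where nuclear reads are also part of the share's denominator. Within the 170 DMSO wells with at least 20000 nuclear reads this rho was -0.25. Within the 153 such ISX-9 wells it was 0.17, the opposite sign.

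**Figure D3:**
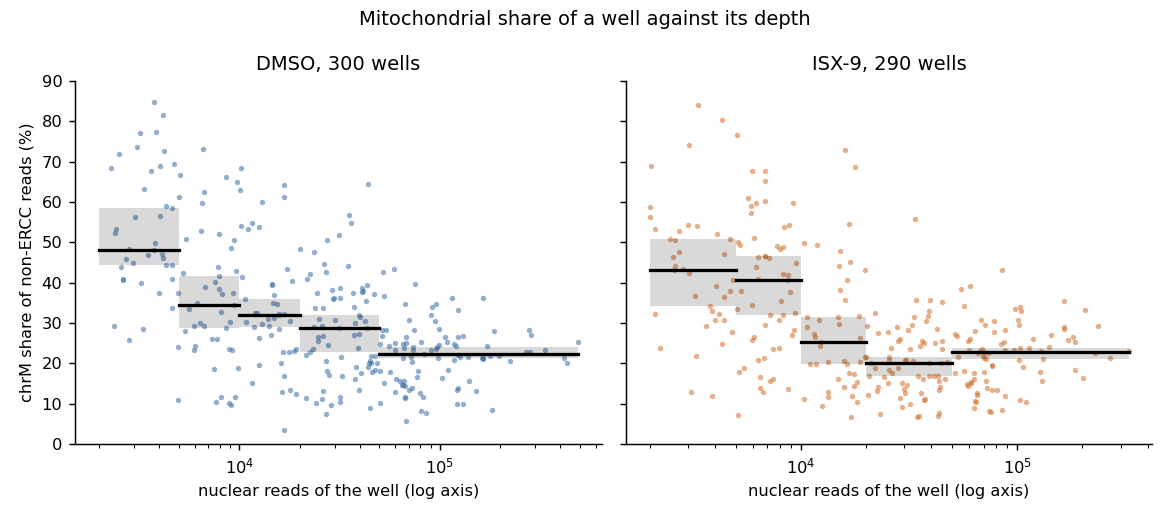
chrM share of non-ERCC reads (vertical axis, percent) against nuclear reads (horizontal log axis) for the 300 DMSO and 290 ISX-9 wells kept; black lines and grey bands are the medians and 95% intervals of 5 depth bins. Shares above 50% lie mostly to the left, and the deepest bins have medians of 22.4% and 22.8%.

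The filter cut through this gradient. Wells just inside it, with 2000 to 3000 nuclear reads, had median shares of 45.4% with DMSO (12 wells) and 49.1% with ISX-9 (14 wells). Wells just outside, with 1000 to 2000 nuclear reads, had 54.7% (28 wells) and 59.3% (41 wells). The 84 DMSO and 94 ISX-9 wells left out had medians of 56.2% and 59.0%.

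Against the spike-ins, the share had a stronger rank relation with nuclear than with mitochondrial reads. The rho of the share with nuclear reads per ERCC read was -0.57 with DMSO and -0.43 with ISX-9. With chrM reads per ERCC read it was 0.06 and 0.21. In the upper 75 DMSO wells by share (40.2% to 84.8%) the median was 2.49 nuclear and 3.51 chrM reads per ERCC read. In the lowest 75 (3.42% to 20.8%) it was 19.0 nuclear and 3.47 chrM reads per ERCC read. The upper and lowest 73 ISX-9 wells had medians of 2.55 nuclear and 3.10 chrM reads, and of 14.2 nuclear and 1.92 chrM reads, per ERCC read. The wells between these ends had medians of 7.05 and 4.57 chrM reads per ERCC read with DMSO and 4.52 and 4.44 with ISX-9, so mitochondrial reads also varied along the share.

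The messages moved together from well to well. The level of each, as a part of its own plus nuclear reads, was set against the sum of the other mitochondrial rows on the same scale, so both share the nuclear reads. The rho was 0.77 to 0.93 for 10 of the 13 messages in both plates. The exceptions were the 3 least read messages. mt-Atp8 had 0.69 and 0.76, mt-Nd4l had 0.52 and 0.54, and mt-Nd6 had 0.11 and 0.05. mt-Rnr2 had 0.71 and 0.70, and mt-Rnr1 had 0.77 and 0.74.

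The lowest share in both plates fell in the well with the same header, 011. It was 3.42% with DMSO, with 592 chrM and 16730 nuclear reads, and 6.63% with ISX-9, with 1206 chrM and 16972 nuclear reads. Their rRNA parts of the chrM reads were also high, at 47.1% and 59.7%. The cells differed in their markers: the DMSO well had 119 Muc2 and 56 Lyz1 reads and no Neurog3 read, and the ISX-9 well had 518 Neurog3 reads and none of Muc2, Lyz1 or Tph1. All 384 headers occur in both tables. Over the 225 wells kept in both plates, the shares of wells with the same header had a rho of -0.12.

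The wells were also split by a read of each of 4 marker genes. Neurog3 marks endocrine progenitors, Tph1 the serotonin-making enterochromaffin cells, Muc2 the goblet cells and Lyz1 the Paneth cells. A single read sufficed for the split, so it does not separate cell types: 124 of the 237 DMSO wells with Muc2 and 123 of the 241 with Lyz1 had 1 to 5 reads of it. Wells with a Neurog3 read had a median share of 26.7% (24.3% to 29.2%, 147 wells) with DMSO, against 29.97% (26.8% to 33.6%, 153 wells) without. In the ISX-9 plate the medians were 24.4% (22.7% to 26.8%, 211 wells) and 28.3% (23.7% to 34.5%, 79 wells). The intervals overlapped in both plates. Wells with a Neurog3 read were also deeper, with medians of 36958 against 18683 nuclear reads with DMSO and 29461 against 11841 with ISX-9. Averaged within depth bins, the difference was 1.30 points with DMSO and 0.94 with ISX-9, the opposite sign of the pooled one. The ISX-9 bins ran from -7.35 to 8.42 points. With each well thinned to 2000 nuclear reads the difference was 1.23 with DMSO and -3.92 with ISX-9. Wells in the higher range of the Neurog3 level (4.11 reads per 10000 nuclear reads or more) had medians of 28.9% and 22.6%.

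Wells with a Tph1 read had a lower share in the ISX-9 plate, while in the DMSO plate the direction depended on the call. The median share was 26.5% with a Tph1 read (23.3% to 30.3%, 132 wells) and 29.0% without (26.8% to 33.6%, 168 wells) in the DMSO plate, with overlapping intervals. In the ISX-9 plate it was 21.6% (19.2% to 25.3%, 135 wells) and 28.1% (25.5% to 30.5%, 155 wells), and these intervals did not overlap. Averaged within depth bins, the difference was -3.92 points with DMSO and -3.91 with ISX-9. It was below 0 in 5 of 5 DMSO bins and in 4 of 5 ISX-9 bins, the exception being 7.62 points at 5000 to 10000 reads. With each well thinned to 2000 nuclear reads, the difference was 1.99 points with DMSO and -6.25 with ISX-9. In the higher range of the Tph1 level (7.63 reads per 10000 nuclear reads or more) the median was 28.7% with DMSO, close to the 29.0% without a read, and 20.2% with ISX-9. In wells with at least 20000 nuclear reads, the Tph1 level had a rho with the share of -0.19 with DMSO and -0.45 with ISX-9.

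Muc2 went the other way in the ISX-9 plate. There, wells with a Muc2 read had a median share of 27.1% (23.9% to 29.6%, 118 wells) against 23.9% (21.9% to 26.6%, 172 wells) without. These intervals overlapped. The difference was above 0 in 5 of 5 depth bins, from 1.83 to 8.95 points, the largest resting on 7 wells with a Muc2 read. In the DMSO plate the medians were 26.6% (24.6% to 28.9%, 237 wells) and 34.0% (30.3% to 39.4%, 63 wells). The DMSO wells without a Muc2 read were shallow, with a median of 12052 nuclear reads against 31688. Within depth bins the DMSO difference averaged 1.37 points and ran from -1.91 to 3.58, the largest resting on 6 wells without a Muc2 read. In the higher range of the Muc2 level (3.44 reads per 10000 nuclear reads or more) the median was 28.5% with DMSO and 30.5% with ISX-9.

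Lyz1 gave no ordered difference. The median share was 27.9% with a read (25.4% to 30.1%, 241 wells) and 31.9% without (26.2% to 37.5%, 59 wells) in the DMSO plate. It was 26.1% (22.7% to 29.0%, 100 wells) and 25.4% (23.3% to 27.3%, 190 wells) with ISX-9. Within depth bins the difference ran from -2.58 to 10.1 points with DMSO and from -3.39 to 9.91 with ISX-9. In the higher range of the Lyz1 level (2.76 reads per 10000 nuclear reads or more) the median was 29.2% with DMSO and 30.5% with ISX-9.

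**Figure D4:**
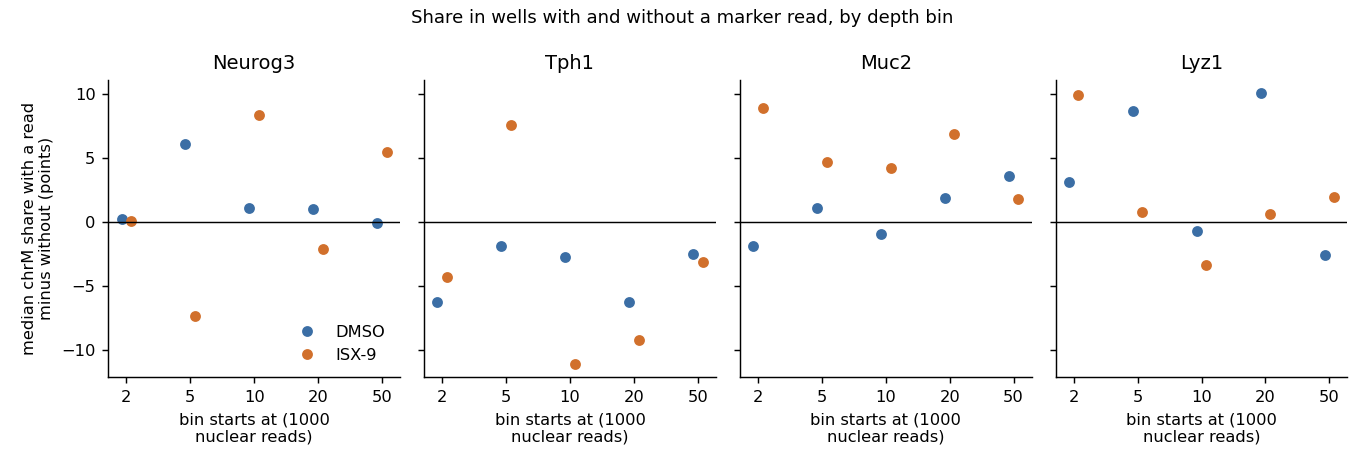
Median chrM share of wells with a read of the marker minus that of wells without (vertical axis, percentage points) in 5 bins of nuclear reads (horizontal axis), for Neurog3, Tph1, Muc2 and Lyz1 in both plates. Tph1 lies below 0 in 5 DMSO bins and 4 ISX-9 bins, Muc2 above 0 in all 5 ISX-9 bins, and Neurog3 and Lyz1 lie on both sides.

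Across all kept wells, most nuclear genes had a negative rho with the share, and the wells with high shares were also shallow. Of the 4660 nuclear genes detected in 25% or more of each plate's kept wells, 96.5% had a rho below 0 in both plates and 1.12% a rho above 0 in both. The rho compares the gene's reads per 10000 nuclear reads with the share. Its median over these genes was -0.21 with DMSO and -0.19 with ISX-9. The 10 genes most like the share, by the lower rho of the 2 plates, were Vmn2r55, Kcnq1ot1, Gm17821, Rps15, A630089N07Rik, Grk4, Rpsa, Pigr, Gm10845 and Srrm2. Vmn2r55, annotated as a vomeronasal receptor, had 0.48 with DMSO and 0.41 with ISX-9, and Kcnq1ot1, a long noncoding RNA that stays in the nucleus, had 0.51 and 0.39. The 10 least like it were Rap1b, 4833439L19Rik, Gabarapl2, Ptprn2, Man2a1, Tmem30a, Usmg5, Ctsl, Atp6v1a and Atp6v1e1. Ptprn2, a membrane protein of secretory granules, had -0.39 and -0.43.

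Over all kept wells, the levels of 2 nuclear-retained RNAs were highest in the wells with the highest shares. Malat1, a nuclear noncoding RNA, had a median over wells of 138 reads per 10000 nuclear reads in the upper 75 DMSO wells by share and 56.3 in the lowest 75. In the upper and lowest 73 ISX-9 wells it had 123 and 48.3. Kcnq1ot1 had medians of 71.1 and 18.1 with DMSO and 50.5 and 15.5 with ISX-9. Those upper wells had medians of only 6550 and 6178 nuclear reads. The wells between these ends, from lower to higher share, had Malat1 medians of 35.0 and 91.6 with DMSO and 35.3 and 42.1 with ISX-9. Their Kcnq1ot1 medians were 14.3 and 26.6 with DMSO and 14.5 and 21.1 with ISX-9. The levels thus did not rise evenly along the share. In the wells with at least 20000 nuclear reads, thinned to 20000, the rho of Malat1 with the share was 0.14 with DMSO and -0.26 with ISX-9, and that of Kcnq1ot1 was 0.22 and 0.02. For Malat1 the sign in the deep ISX-9 wells was thus the opposite. The part of damaged or emptied cells in the high shares was not tested.

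In deep wells the genes highest by rho were ribosomal protein genes. Each of the 170 DMSO and 153 ISX-9 wells with at least 20000 nuclear reads was thinned to 20000, a setting chosen after the data were seen. The rho was then below 0 in both plates for 28.4% of the 4660 genes and above 0 in both for 34.7%, with a median of -0.01 with DMSO and 0.03 with ISX-9. The 10 highest were all ribosomal protein genes, among them Rpsa, Rpl17, Rpl36, Rps15, Rps12, Rpl41, Rpl28 and Rpl27a. Rpsa and Rps15 were also among the 10 highest in all kept wells. Rpsa had 0.44 with DMSO and 0.63 with ISX-9. Of 72 ribosomal protein genes measured, a group named after its values were seen, all 72 had a rho above 0 in both plates, with medians of 0.28 and 0.43. In all kept wells without thinning, 15 of the 72 had a rho above 0 in both plates and 42 below 0 in both. Over all 4660 genes in those wells, 1.12% were above 0 and 96.5% below 0 in both plates. Reads of some ribosomal protein genes cannot be separated from their processed pseudogenes.

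The lowest 10 in these deep wells were Pcsk1, Ptprn2, Myt1, Tm4sf4, Sis, Aplp1, Pdk3, Adh1, Rundc3a and Rap1b, of which Ptprn2 and Rap1b were also among the lowest in all kept wells. Pcsk1, the prohormone convertase of endocrine cells, had -0.33 with DMSO and -0.39 with ISX-9. Tm4sf4, a tetraspanin-like membrane protein, had -0.30 and -0.55. All 5 enterochromaffin markers (Tph1, Chga, Chgb, Tac1 and Slc18a1) had a rho below 0 in both plates, from -0.25 to -0.14 with DMSO and from -0.47 to -0.29 with ISX-9. The 5th percentile over all genes was -0.17 with DMSO and -0.19 with ISX-9. All 5 markers lay below it with ISX-9, while Tph1, Chga and Tac1 lay above it with DMSO. Of the 7 goblet markers, 5 were measured in enough wells, and all 5 had a rho above 0 in both plates. Of the 5 stem cell markers, 3 were measured in enough wells and were above 0 in both plates. Slc12a2, an ion transporter used as a crypt marker, had 0.23 and 0.47. Of the 6 Paneth markers, 4 were measured, 2 of them above 0 in both plates and 1 below. Of the 8 peptidergic markers, 3 were measured, 2 of them below 0 in both plates. Of the 5 progenitor markers, 4 were measured, 3 below 0 in both plates and 1 above. Beside these counts, 34.7% of all genes were above 0 and 28.4% below 0 in both plates, and the lists are short.

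**Figure D5:**
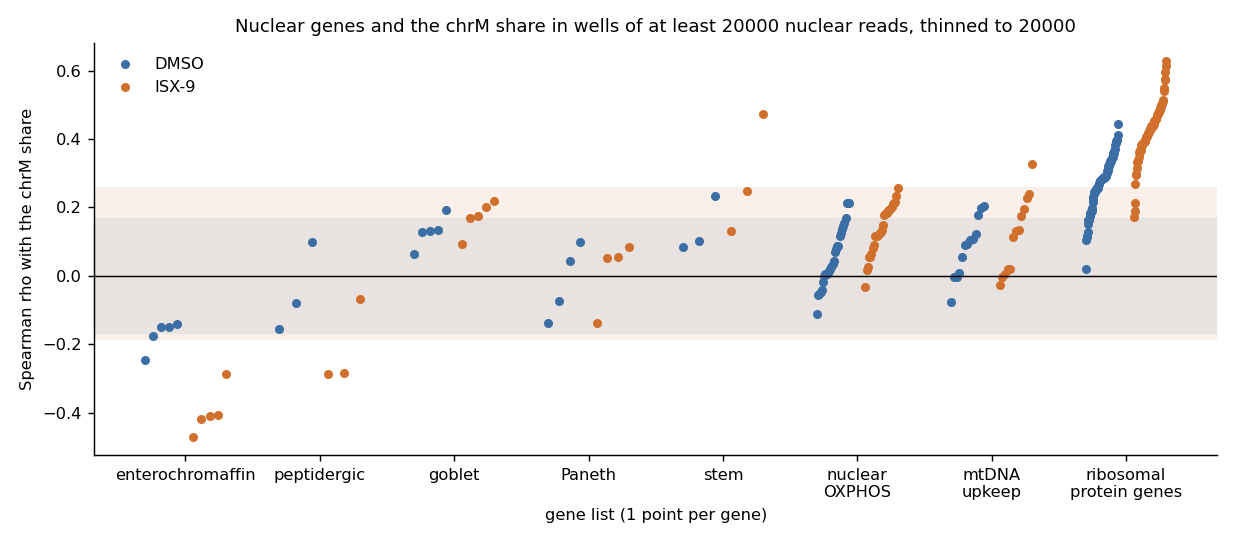
Spearman rho of a nuclear gene's level with the chrM share (vertical axis) over the 170 DMSO and 153 ISX-9 wells with at least 20000 nuclear reads, thinned to 20000; each point is a gene, grouped by list (horizontal axis), and shaded bands span the 5th to the 95th percentile of all 4660 genes in each plate. The enterochromaffin markers lie below 0 and the ribosomal protein genes above 0 in both plates.

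The nuclear genes of the same complexes did not stand apart between the plates. Of 30 listed subunits, 28 were in the tables under the symbols searched, and all 28 averaged 10 CPM or more. Their log2 ratio of ISX-9 over DMSO was above 0 for 24 and below 0 for 4, with a median of 0.19, beside 69.4% above 0 and a median of 0.16 over all genes tested. None was 2-fold higher or lower. Ndufs1, an iron-sulphur subunit of complex I, had 0.60, Ndufa4 0.49, Cox5a of complex IV 0.45 and Cox6c 0.45. In all kept wells, all 28 had a rho with the share below 0 in both plates, beside 96.5% of all genes. In the deep, thinned wells 21 of 28 were above 0 in both plates and 1 below, beside 34.7% and 28.4%. Cox6c had 0.21 and 0.19 there, and Atp5o, a stalk subunit of the ATP synthase, had 0.21 and 0.21.

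Among genes that copy, transcribe and process mitochondrial DNA, Mtpap differed most between the plates. Of 31 listed, 25 were in the tables and 19 averaged 10 CPM or more, with a median log2 ratio of 0.05, beside 0.16 over all genes tested, and none 2-fold higher or lower. Mtpap, the mitochondrial poly(A) polymerase, had 40.1 CPM with DMSO and 74.9 with ISX-9 (log2 ratio 0.83). Polrmt, the mitochondrial RNA polymerase, had 17.3 and 25.2 CPM (0.44). Lars2, the mitochondrial leucyl-tRNA synthetase, had 161 and 119 CPM (-0.42), and the nuclease Mgme1 16.4 and 12.7 CPM (-0.28). Tfam, which packages the mitochondrial genome, had 71.7 and 73.0 CPM. In the deep, thinned wells, 13 of the list were measured, 9 with a rho above 0 in both plates and 1 below, beside 34.7% and 28.4% of all genes. Hspd1, the mitochondrial chaperonin, had 0.20 and 0.33.

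Regulators of mitochondrial biogenesis had a median log2 ratio of 0.16 over the 10 of 13 that averaged 10 CPM or more, the same as over all genes tested, and none reached 2-fold. Myc had 88.0 CPM with DMSO and 163 with ISX-9 (0.85), Esrra 15.9 and 22.7 (0.41), Nrf1 12.4 and 17.0 (0.34) and Sirt1 21.9 and 28.7 (0.33). Ppargc1a, the coactivator that drives the programme in many tissues, had 14.6 and 14.1 CPM.

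The stress and damage list held 2 of its 9 measured genes past 2-fold, 1 higher and 1 lower, beside 3.91% higher and 1.16% lower over all genes tested. Bnip3, a mitophagy receptor, had 58.3 CPM with DMSO and 130 with ISX-9 (1.09). Atf5, a transcription factor of the mitochondrial unfolded protein response, had 72.6 and 30.8 CPM (-1.12). Atf4, the factor of the integrated stress response, had 259 and 148 CPM (-0.79), and Pmaip1, a cell death activator, had 14.2 and 6.40 CPM (-0.75). Of the 8 nuclear rows that could hold copies of mitochondrial sequence, none was listed under the symbols searched.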

How the data were processed

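Per the labels, single cells were processed by SORT-seq with CEL-Seq2 primers. The deposited tables hold counts of reads per gene and well, with no normalization; the submitters' processing notes name BWA and the build hg19, although the rows carry mouse symbols, and the sources used here do not give how reads were assigned to genes. Reads are not molecules: the molecular barcode has 4 bases (256 combinations), and no molecule counts were used. Intervals cover sampling of wells (order statistics) or reads (exact Poisson, Clopper-Pearson) at the 95% level only.

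The row mtNd1 was read as mt-Nd1. The share is chrM reads over all non-ERCC reads of a well. CPM are counts scaled to 1000000 non-ERCC reads over kept wells, and log2 ratios use CPM plus 5. Coordinates and sequences are those of GENCODE M21 (GRCm38). The kept wells held 5290771 chrM and 14754827 nuclear reads with DMSO and 3981753 and 11801859 with ISX-9.

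With 1 plate per treatment, and wells of a plate not being replicates, nothing was tested and p-values are absent. Named genes were all messages and rRNAs, the 5 most read tRNAs, the 10 nuclear genes at each end of rho, and up to 4 members of each list by ratio; the deep-well genes, the ribosomal protein genes, Malat1, Tfam, Ppargc1a, Atp5o, Hspd1, Slc12a2 and the members of a list named for their rho were chosen after their values were seen. Some genes at the ends of rho are not reported here by name. The members and lists were chosen with earlier results of these data known. The analysis used Python 3.11.15, numpy 2.4.6, pandas 2.3.3 and scipy 1.17.1, and scripts were tested on simulated data.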

Additional observations from a re-analysis of the deposited data

Results flagged for a closer look

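For 2 markers the difference in share between wells with and without a read had opposite signs in the 2 plates, and the difference between the plates was not tested. For Muc2 it was -7.41 percentage points with DMSO and 3.27 with ISX-9. For Lyz1 it was -3.95 points with DMSO and 0.74 with ISX-9. Averaged within depth bins, all 4 values were above 0: 1.37 and 4.91 points for Muc2, and 3.28 and 1.70 for Lyz1.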

How the results depend on the processing

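No paired analysis was possible because each treatment has 1 plate. Wells near the minimum hold few nuclear reads, and the wells with a Neurog3 read were deeper than those without. The median share with DMSO (28.4%) and ISX-9 (25.5%) was 30.6% and 27.8% with a minimum of 1000 reads and 250 genes. It was 22.0% and 21.02% for protein-coding rows only, with rRNA and tRNA rows left out of the denominator too, and 23.8% and 21.4% in wells of at least 20000 nuclear reads. The DMSO median was 32.2% with Rn45s left out of the denominator, 25.9% without wells over 50% chrM, and 26.4% for pooled reads. The ISX-9 median was 23.3% with a minimum of 5000 reads and 1000 genes. Without the wells headed 289 to 384 it was 27.8%, and the difference between the plates was -0.25 points instead of -2.97; in the other 8 settings that difference stayed below 0, between -5.65 and -0.98 points.

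With a Neurog3 read, the difference in share with DMSO was 0.12 points when a call needed 5 reads per 10000 nuclear reads, 1.23 after thinning to 2000 reads and 1.30 within depth bins. With ISX-9 it was -13.5 under the looser filter, -5.53 at 5 reads per 10000, -3.92 after thinning, 1.49 in wells of at least 20000 reads and 0.94 within depth bins. For Tph1 with DMSO it was 0.84 at 5 reads per 10000 and 1.99 after thinning; with ISX-9 it stayed below 0 in all 7 settings. For Muc2 with DMSO it was 0.13 at 5 reads per 10000, 0.15 after thinning and 1.37 within depth bins, and with ISX-9 it was 7.35 at 5 reads per 10000. For Lyz1 with DMSO it was 0.15 after thinning and 3.28 within depth bins, and with ISX-9 -0.39 under the looser filter and 5.37 at 5 reads per 10000. The cause was not tested.

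The rho of share and nuclear reads was -0.41 with DMSO and -0.30 with ISX-9 without wells over 50% chrM, and -0.25 and 0.17 in wells of at least 20000 reads. The rRNA part of chrM reads was 29.4% and 21.6% as a mean over wells and 23.7% and 15.2% in those deep wells, and with ISX-9 17.1% without the well with the most chrM reads. Of the 15 messages and rRNAs, 14 kept the sign of their log2 ratio in all 4 other settings, and mt-Nd5 did not. None of these settings left the rRNAs out of the total. Counted among protein-coding mitochondrial reads only, mt-Nd1 had -0.04 and mt-Cytb -0.03, the opposite sign of their main ratios. Settings with 20000 reads and without the wells headed 289 to 384 were chosen after the data were seen.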
